A study of Mus musculus with 6 samples.

Results

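The glutathione, peroxiredoxin and thioredoxin genes of mouse embryonic stem cells (ESCs) are described here as they were measured with LIF and after retinoic acid (RA). They were taken from the deposited RNA-seq table by symbol, as the Gsta, Gstk, Gstm, Gsto, Gstp, Gstt and Gstz genes, the Mgst, Gpx, Prdx, Txn, Txnrd and Sod genes, and Gclc, Gclm, Gss, Gsr, Cat, Nqo1, Hmox1 and Hmox2. The symbols found 54 of 23235 rows. The labels give the cells as E14Tg2a, a pluripotent line of mouse origin, between passages 37 and 40. One group of 3 samples was kept in leukemia inhibitory factor (LIF), which holds ESCs in the pluripotent state. The other 3 samples were monolayers without LIF that received 1 µM RA for 48 h, named NCs (neuronal cells) by the study. The labels list serum and a mercapto compound, written B-mercaptenal, in the culture medium.

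The table gives 1 FPKM value per gene and condition, pooled by the authors over the 3 samples. FPKM relates the fragments of a gene to its transcript length and to the depth of the library, so levels of different genes can be set side by side. No value of a single sample was at hand. Each difference therefore has no replicate check, no error could be given, and no test of NCs against ESCs was made. A gene was read as higher or lower in NCs when its values differed at least 2-fold and their mean was at least 1 FPKM.

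These genes make up the thiol-based defence against peroxides and reactive compounds. Glutathione is a tripeptide made by glutamate-cysteine ligase and glutathione synthetase. Glutathione peroxidases spend it to reduce peroxides, and glutathione transferases attach it to reactive molecules. Peroxiredoxins also reduce peroxides, through a cysteine that thioredoxin restores, and thioredoxin reductase recharges thioredoxin with electrons from NADPH. Superoxide dismutases and catalase act upstream and beside them on superoxide and hydrogen peroxide. Many of these genes carry antioxidant response elements, the sites at which the transcription factor NRF2 acts.

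The labelled states were checked with 6 marker lists. Of 14 pluripotent cell markers, 13 were at least 2-fold lower in NCs, among them Dppa5a (3612 to 780.1 FPKM), Pou5f1 (832 to 37.1 FPKM) and Tdgf1 (564 to 1.10 FPKM). All 8 RA response genes were higher, 3 of them from under 1 FPKM in ESCs, with Crabp2 at 18.3 and 949.8 FPKM, Stra8 at 5.15 and 340.2 FPKM and Cyp26a1 at 0.874 and 215 FPKM. Of 14 neural and neuronal markers, 10 passed the filter, and Dcx, Neurog1, Neurog2 and Rbfox3 did not. Of the 10, 4 were higher (1 of them under 1 FPKM in ESCs) and 3 lower (2 of them under 1 FPKM in NCs). Pax6 of neural progenitors went from 3.64 to 65.2 FPKM and Nes from 12.9 to 18.3 FPKM, but the neuronal tubulin Tubb3 went from 33.4 to 7.54 FPKM. The values of neuronal markers thus do not bear out the name NC, which is kept here only as the name of the RA-treated group. Markers of other cells moved too. Of 14 endoderm markers, 11 passed the filter, and Afp, Apoa1 and Ttr did not. Of the 11, 8 were higher and none lower, and 4 of the 8 were under 1 FPKM in ESCs and passed through their NC value. The 11 summed to 63.0 FPKM in ESCs and 122 in NCs. Col4a1 went from 23.5 to 51.8 FPKM, Lama1 from 16.5 to 21.1 and Dab2 from 9.004 to 19.3. Of 12 mesenchymal markers, 8 passed the filter, and Postn, Prrx1, S100a4 and Lum, listed at 0 in ESCs, did not. Of the 8, 6 were higher (3 of them under 1 FPKM in ESCs) and 1 lower, with sums of 34.0 and 70.5 FPKM. Col1a2 went from 3.47 to 23.3 FPKM, Acta2 from 12.2 to 10.3 and Col1a1 from 5.78 to 13.0. Of 10 trophoblast markers, 5 passed the filter, and Cdx2, Elf5, Hand1, Plac1 and Prl3d1, listed at 0 in both, did not. Of the 5, 3 were higher (1 of them under 1 FPKM in ESCs) and 1 lower, with sums of 115 and 182 FPKM. Krt18 went from 45.7 to 103 FPKM, Krt8 from 30.5 to 64.2 and Tfap2c from 34.0 to 4.59. The part of such cells in the results below was not tested. In a bulk population, fewer cells that express a gene and less of its RNA per cell cannot be told apart.

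Of the 54 genes, 45 had a mean of at least 1 FPKM. Of these, 13 were at least 2-fold lower in NCs (28.9%), 2 were at least 2-fold higher (4.44%) and 30 lay within the limit. Over all 12784 rows past the same filter, 9.93% were lower and 11.1% higher. The 13 were the transferases Gstm3, Gstm6, Gstk1, Gstm1, Gstt2, Gstp2, Gstm7 and Gsta4, the peroxidases Gpx2 and Gpx4, and Hmox1, Sod2 and Gclm. The 2 were the peroxidases Gpx3 and Gpx8. The median log2 ratio of NCs over ESCs was -0.37 for the 45 genes and -0.04 for all rows, and 33 of the 45 had the lower value in NCs (73.3%, against 52.4% of all rows).

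These shares depend on how the columns are scaled. The FPKM of all rows sum to 770592 in ESCs and 628679 in NCs. When both columns were given the same total, every log2 ratio moved up by 0.29 and the median of all rows became 0.26. On that scale 7 of the 45 genes were lower (15.6%, against 6.72% of all rows), 3 were higher (6.67%, against 16.8%), 27 had the lower value in NCs and their median was -0.07. Gclm, Gpx4, Gsta4, Gstm7, Hmox1 and Sod2 then lay within the limit, and Mgst1 was counted as higher. Lower calls made up 86.7% of the genes' calls as deposited and 70% with equal totals. For all rows these shares were 47.2% and 28.6%. A second limit is shared sequence: 34 genes past the filter had under 10% of their 50-base words in other genes. Of these, 8 were lower (23.5%, against 9.93% of all rows) and 2 higher (5.88%, against 11.1%).

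**Figure D1:**
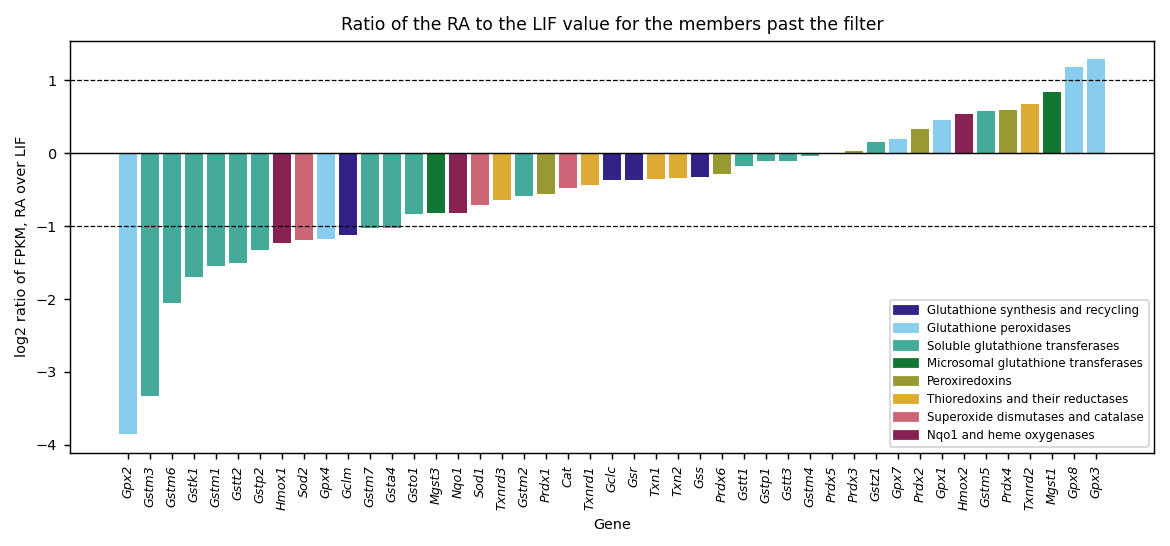
Bars give the log2 ratio of the NC to the ESC FPKM for each of the 45 genes with a mean of at least 1 FPKM, coloured by family, and dashed lines mark the 2-fold limits. The 13 genes below the lower line run from Gpx2 at -3.85 to Gsta4 at -1.02, and Gpx8 and Gpx3 alone lie above the upper line. With both columns at the same total, 6 of the 13 come to lie within the lines and Mgst1 above the upper one.

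As a whole the 45 genes past the filter were well expressed in both states. Their median level was 29.5 FPKM in ESCs and 21.1 in NCs. The medians of all rows past the filter were 11.5 and 11.6 FPKM. The 54 genes together held 4977 FPKM in ESCs and 3553 in NCs, which is 0.646% and 0.565% of the total. The 10 genes with the highest mean, Sod1, Prdx1, Gpx4, Prdx2, Txn1, Gsta4, Txnrd1, Prdx6, Txn2 and Gpx1, held 81.6% of the 54 genes' FPKM in ESCs and 77.5% in NCs. Of these 10, Gpx4 and Gsta4 were at least 2-fold lower and none was higher. Over all rows, 9.93% were lower and 11.1% higher. With equal totals Gpx4 and Gsta4 lay within the limit (log2 ratios -0.88 and -0.73).

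**Figure D2:**
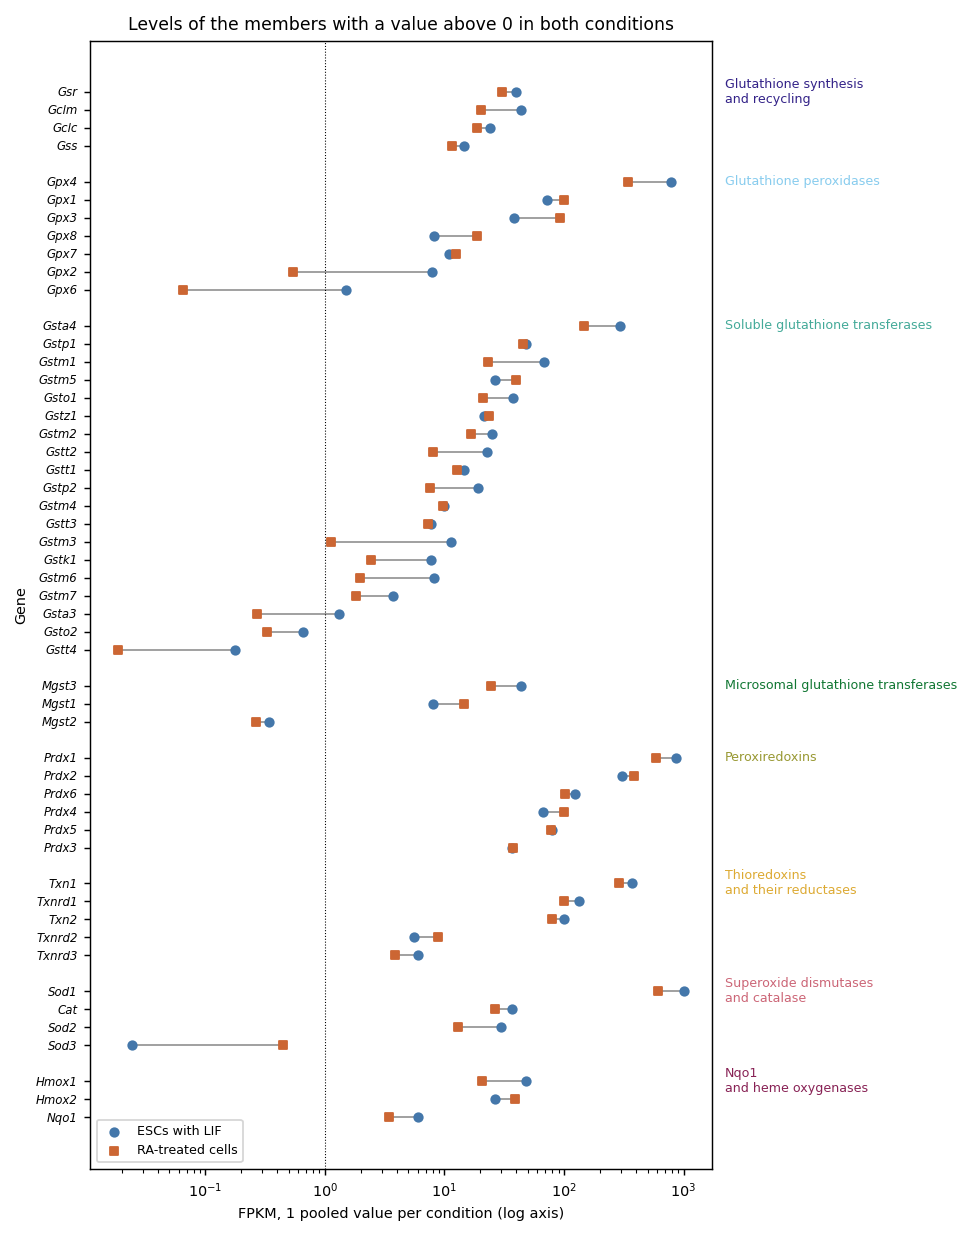
Each row shows 1 gene with its FPKM in ESCs with LIF (blue circles) and in RA-treated NCs (orange squares) on a log axis, ordered by family and by mean level, and the dotted line marks 1 FPKM. Sod1, Prdx1 and Gpx4 lead in ESCs at 1009, 868 and 780.6 FPKM, and the longest lines among genes past the filter are those of Gpx2 and Gstm3. Gpx5, Gsta1 and Gsta2, listed at 0 in at least 1 condition, are not drawn.

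The enzymes that make and recycle glutathione all had the lower value in NCs, and 1 of 4 passed the fold limit (25%, against 9.93% of all rows). Gclm, the modifier subunit of glutamate-cysteine ligase, was at 43.7 FPKM in ESCs and 20.1 in NCs, a log2 ratio of -1.12. Gclc, its catalytic subunit, was at 24.2 and 18.7 FPKM. Per transcript length, the modifier was thus above the catalytic subunit in ESCs, and close to it in NCs. Gss, the glutathione synthetase of the next step, went from 14.5 to 11.5 FPKM, and 10.3% of its 50-base words occur in other genes. Gsr, the reductase that returns oxidised glutathione to its reduced form, went from 39.4 to 30.6 FPKM. The log2 ratios of Gclc, Gss and Gsr were -0.37, -0.33 and -0.37, close to the shift between the scalings.

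The glutathione peroxidases were the family with calls in both directions. Of 6 past the filter, 2 were higher (33.3%, against 11.1% of all rows) and 2 lower (33.3%, against 9.93%). Gpx1 to Gpx4 are selenoproteins: selenocysteine is read from a TGA codon that would otherwise end translation. In the other mouse peroxidases a cysteine codon stands at the matching place. The codons are shown because they divide the family into enzymes with selenium and without it. Each line gives the coding strand, 5′ to 3′, from GENCODE M21 on GRCm38, with the selenocysteine codon, or the cysteine codon aligned to it, in capitals.
Gpx1: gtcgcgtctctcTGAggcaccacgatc
Gpx2: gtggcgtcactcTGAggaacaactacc
Gpx3: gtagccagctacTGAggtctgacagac
Gpx4: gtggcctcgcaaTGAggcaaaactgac
Gpx5: gtggctacctatTGCggtctgacaatc
Gpx6: gtggcatccttcTGTggcctgacagct
Gpx7: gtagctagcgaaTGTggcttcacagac
Gpx8: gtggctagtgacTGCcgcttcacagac

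The selenocysteine codons lie in exons at chr9:108339451-108339453 (plus strand) in Gpx1, chr12:76795256-76795258 (minus) in Gpx2, chr11:54907256-54907258 (plus) in Gpx3 and chr10:80054737-80054739 (plus) in Gpx4. The cysteine codons lie at chr13:21291336-21291338 (minus) in Gpx5, chr13:21313777-21313779 (plus) in Gpx6, chr4:108403430-108403432 (minus) in Gpx7 and chr13:113045661-113045663 (minus) in Gpx8.

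Gpx4, which reduces lipid peroxides in membranes and guards against ferroptosis, was the leading peroxidase in both states. It was at 780.6 FPKM in ESCs and 346 in NCs, 2.26-fold lower (log2 ratio -1.17). Of its 50-base words, 34.7% also occur in transcripts of other genes, chiefly the pseudogene Gpx4-ps2, so fragments could be divided between them. Gpx2, the peroxidase best known from gut epithelium, had the largest ratio of all 45 genes, with 7.85 FPKM in ESCs and 0.545 in NCs, 14.4-fold lower (log2 ratio -3.85). It passed the filter through its ESC value, and it overlaps Fntb on the opposite strand, where fragments cannot be assigned without the strand.

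Gpx3, the secreted peroxidase of plasma, went the other way, from 38.1 to 92.9 FPKM, 2.44-fold higher in NCs (log2 ratio 1.29). Gpx8, a peroxidase of the endoplasmic reticulum with cysteine at the active site, went from 8.18 to 18.7 FPKM, 2.28-fold higher (log2 ratio 1.19), and overlaps Cdc20b on the opposite strand. Gpx1, the broadly expressed cytosolic enzyme, was at 72.6 and 100.0 FPKM and Gpx7, the other reticulum enzyme, at 10.8 and 12.4 FPKM, both within the limit. After RA, Gpx1 and Gpx3 thus stood at like levels, although Gpx3 had been the lower of the pair in ESCs. Gpx6 was at 1.49 and 0.0643 FPKM and did not pass the filter, and Gpx5, known from the epididymis, was listed at 0 in both. Of the selenocysteine peroxidases Gpx3 was higher and Gpx2 and Gpx4 lower, and of the cysteine ones Gpx8 was higher. With equal totals Gpx4 lay within the limit (-0.88). Only 6 peroxidases passed the filter, Gpx7 and Gpx8 with cysteine, too few to judge a relation between call and codon.

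The soluble glutathione transferases gave most of the lower calls. Of 21 genes, 16 passed the filter. Of these, 8 were at least 2-fold lower in NCs (50%, against 9.93% of all rows) and none was higher (against 11.1%). The median log2 ratio of the 16 was -0.93, and -0.64 with equal totals. Their summed level went from 628 to 368 FPKM. Among the 29 other genes past the filter, 5 were lower (17.2%) and 2 higher (6.9%), with a median of -0.36. Gsta4, the alpha-class enzyme that conjugates the lipid peroxidation product hydroxynonenal, held much of the sum, with 296 FPKM in ESCs and 146 in NCs (log2 ratio -1.02). It lies just past the fold limit, as does Gstm7, and both lie within it with equal totals. None of the 50-base words of Gsta4 occur in another gene. Gstk1, the kappa-class enzyme of mitochondria and peroxisomes, went from 7.79 to 2.41 FPKM (log2 ratio -1.69).

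The 7 mu-class genes stand in 1 cluster of 149 kb on chromosome 3 (GRCm38, 107895821 to 108044894). Of the 7, 4 were lower (57.1%, against 9.93% of all rows) and none was higher (against 11.1%). In genome order, Gstm5 was at 26.5 FPKM in ESCs and 39.5 in NCs. Gstm7 followed at 3.68 and 1.81 FPKM (log2 ratio -1.02), and Gstm6 at 8.15 and 1.95 FPKM (-2.06). Gstm3 was at 11.4 and 1.13 FPKM, 10.1-fold lower (-3.33), the largest ratio of the cluster. Gstm2, within the limit, was at 24.9 and 16.5 FPKM. Gstm1, the leading mu-class gene in ESCs, was at 67.9 and 23.2 FPKM (-1.55), and Gstm4 at 9.98 and 9.71 FPKM. As deposited, the lower genes Gstm7, Gstm6 and Gstm3 were thus a run of neighbours. With equal totals Gstm7 lay within the limit (-0.73). Gstm1 lay between Gstm2 and Gstm4, which were within the limit. In NCs Gstm5, at the edge of the cluster and on the other strand from the rest, had the highest level of the 7. Of the 50-base words of Gstm3 and Gstm1, 28.8% and 18.9% occur in other transcripts, among them each other and pseudogenes. The division of fragments is least certain for these 2. The shares were 5.97% in Gstm6, 5.65% in Gstm2, 0.532% in Gstm7 and 0% in Gstm4. For Gstm5 the share was 9.44%, with 4933431E20Rik on the opposite strand.

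The theta and pi classes each had 1 lower gene, of 3 and 2 past the filter (33.3% and 50%, against 9.93% of all rows). None was higher (against 11.1%). Of the 4 theta-class genes, within 63.3 kb on chromosome 10, Gstt2 went from 22.6 to 7.95 FPKM (log2 ratio -1.50). Gstt1 was at 14.5 and 12.8 FPKM, Gstt3 at 7.77 and 7.25 FPKM, and Gstt4 was at 0.177 FPKM in ESCs and, in NCs, at 0.0187 FPKM, below the value of 3 fragments. Of the pi-class pair, within 10.6 kb on chromosome 19, Gstp2 went from 19.1 to 7.61 FPKM (log2 ratio -1.33) and Gstp1 from 48.6 to 45.1 FPKM. Gstp1 and Gstp2 share 33.7% and 54.3% of their 50-base words with other genes, chiefly with each other, so the value of each is uncertain. Gstt3 shares 12.5% of its words, mainly with Gm20441, which overlaps it on the same strand.

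**Figure D3:**
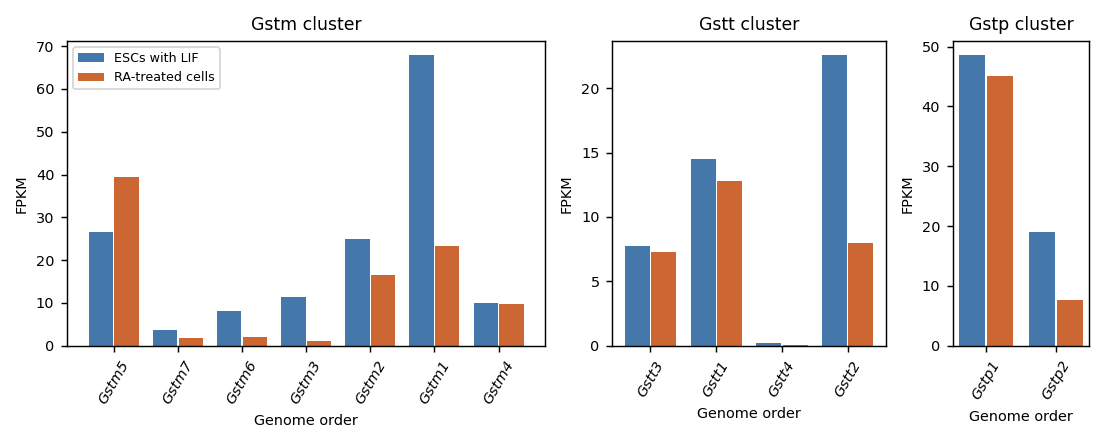
Bars from 0 give the FPKM in ESCs (blue) and NCs (orange) of the mu, theta and pi transferase genes in the order in which they lie on their chromosomes. Gstm1, Gstt2 and Gstp2 have the lower value in NCs, while Gstm4, Gstt3 and Gstp1 of the same clusters have bars of nearly the same height in both states, and Gstm5 has the higher bar in NCs.

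The remaining transferases were within the limit or low. Gsto1, the omega-class enzyme, which reduces dehydroascorbate, was at 37.7 and 21.1 FPKM, and Gstz1, an enzyme of tyrosine breakdown, at 21.3 and 23.7 FPKM. Gsto2 was at 0.655 and 0.326 FPKM, and Gsta3 at 1.30 and 0.269 FPKM. Gsta1 was listed at 0 in both, and Gsta2 at 0.0211 and 0 FPKM, so of the alpha class Gsta4 alone passed the filter. Of the microsomal enzymes, which sit in membranes, Mgst1 went from 8.06 to 14.5 FPKM (log2 ratio 0.84) and Mgst3 from 43.5 to 24.6 FPKM (-0.82), both short of the limit. Mgst2 was at 0.339 and 0.264 FPKM.

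None of the 11 peroxiredoxins, thioredoxins and thioredoxin reductases was past the fold limit. Of all rows, 9.93% were lower and 11.1% higher. The 6 peroxiredoxins had a median log2 ratio of 0.01, or 0.31 with equal totals. Their summed level was 1480 FPKM in ESCs and 1294 in NCs, and their share of the FPKM of the 54 genes went from 29.7% to 36.4%. Prdx1, the most abundant, was at 868 and 592 FPKM (log2 ratio -0.55), and Prdx2, the other main cytosolic enzyme, at 307 and 386 FPKM (0.33). Prdx3 of mitochondria was at 36.4 and 37.4 FPKM and Prdx5, found in several compartments, at 78.7 and 78.2 FPKM, with Trmt112 overlapping on the opposite strand. Prdx4 of the endoplasmic reticulum was at 66.8 and 100.4 FPKM (0.59), and Prdx6, which also uses glutathione, at 123 and 101 FPKM. The level of Prdx1 stood above that of Prdx2 in both states, with the wider gap in ESCs. Of the 50-base words of Prdx2, 12% occur in other genes, and Rnaseh2a and Junb overlap it on the opposite strand.

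Txn1, the cytosolic thioredoxin, was at 372 FPKM in ESCs and 289 in NCs (log2 ratio -0.36), and Txn2, the mitochondrial one, at 99.6 and 78.6 FPKM (-0.34). Their reductases are selenoproteins as well, with the selenocysteine as the next to last residue of the chain. The 3 ends are shown because, unlike in the peroxidases, only 1 codon lies between the capital TGA and the stop codon.
Txnrd1: cagtctggctgcTGAggt
Txnrd2: gtgactggttgcTGAggc
Txnrd3: cagaaaggctgcTGAggc

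These codons lie at chr10:82896037-82896039 in Txnrd1, chr16:18477772-18477774 in Txnrd2 and chr6:89674789-89674791 in Txnrd3, all on the plus strand. Txnrd1, the cytosolic reductase, was at 135 and 99.7 FPKM (log2 ratio -0.43). Txnrd2 of mitochondria was at 5.56 and 8.89 FPKM (0.68), and Txnrd3, known from the testis, at 6.05 and 3.88 FPKM (-0.64). Cytosolic Txnrd1 was the leading reductase in both states. Over the 7 selenocysteine genes together, 1 was higher (14.3%, against 11.1% of all rows) and 2 were lower (28.6%, against 9.93%). With equal totals, Gpx4 was no longer among the lower genes.

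Of the superoxide dismutases, Sod2, the manganese enzyme of mitochondria, went from 29.5 to 12.9 FPKM (log2 ratio -1.20), and 21% of its 50-base words occur in other transcripts. Sod1, the copper and zinc enzyme of the cytosol, had the highest level of all 54 genes, with 1009 FPKM in ESCs and 617 in NCs (-0.71). Sod3, the extracellular enzyme, was at 0.0245 and 0.443 FPKM and did not pass the filter. Cat, the catalase of peroxisomes, was at 36.9 and 26.6 FPKM (-0.47).

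Hmox1, the inducible heme oxygenase, went from 48.1 to 20.5 FPKM (log2 ratio -1.23), while Hmox2, the constitutive one, was at 26.6 and 38.6 FPKM (0.54). The order of the pair was thus opposite in ESCs and NCs. Hmox2 shares 41.9% of its 50-base words, mainly with Cdip1, which overlaps it on the opposite strand. Nqo1, a quinone reductase often used as a readout of NRF2, was at 6.06 and 3.44 FPKM (-0.81).

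**Figure D4:**
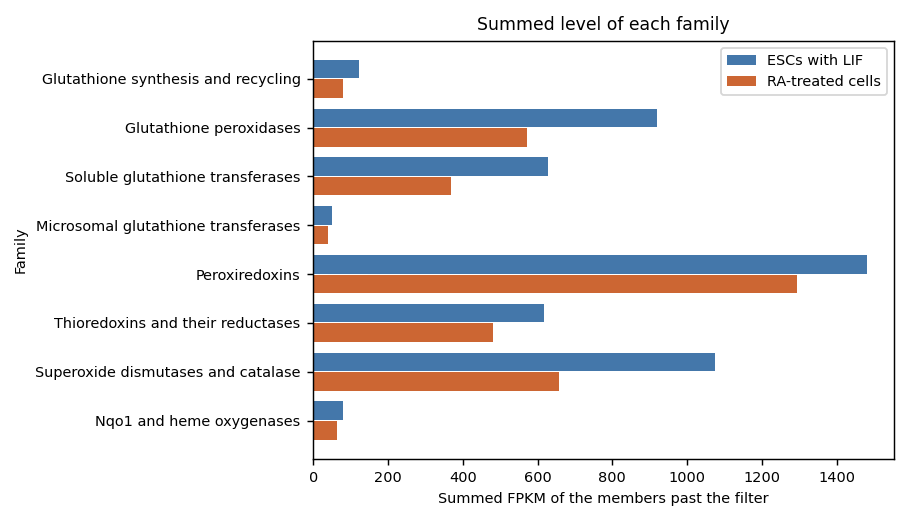
Bars from 0 give the summed FPKM of the genes past the filter in each of 8 families, in ESCs (blue) and NCs (orange). Peroxiredoxins hold the largest sum in both states, 1480 and 1294 FPKM, and the soluble transferases go from 628 to 368 FPKM.

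Promoters were searched for the core of the antioxidant response element, TGACNNNGC, on both strands from 250 bases before to 50 bases after the start of each RefSeq gene. Of the 54 genes, 47 had a promoter entry. Gclc, Gsr, Gsta4, Gstt2, Hmox1, Prdx6 and Sod3 had none. The core stood in 8 of 47 (17%), and in 14% of all 27025 genes (12.4% of 32851 promoters). The windows are shown, 5′ to 3′ on the strand of the gene, because genes on either side of the limit share the word. Gclm and Gstm7 were lower as deposited and Txnrd1 was within the limit. With equal totals all of these lay within it (log2 ratios -0.83, -0.73 and -0.14). Capitals mark the core, which is seen as its reverse complement where it lies on the opposite strand.
Gclm: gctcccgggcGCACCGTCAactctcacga
Gstm7: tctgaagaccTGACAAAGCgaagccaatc
Txnrd1: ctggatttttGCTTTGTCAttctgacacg
Prdx1: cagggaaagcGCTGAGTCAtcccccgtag
Sod1: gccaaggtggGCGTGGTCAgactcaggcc
Gstm5: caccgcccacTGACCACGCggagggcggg
Mgst1: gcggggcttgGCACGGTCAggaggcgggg
Gsta3: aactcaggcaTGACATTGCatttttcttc

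On GRCm38.p6 these windows are chr3:122245413-122245441 (plus strand) for Gclm, chr3:107931725-107931753 (minus) for Gstm7, chr10:82859104-82859132 (plus) for Txnrd1, chr4:116685456-116685484 (plus) for Prdx1, chr16:90220696-90220724 (plus) for Sod1, chr3:107895802-107895830 (plus) for Gstm5, chr6:138140461-138140489 (plus) for Mgst1 and chr1:21240454-21240482 (plus) for Gsta3. The core began 134 bases before the start in Gclm, 129 in Gstm7, 133 in Prdx1 and 92 in Txnrd1. Of the 8 genes, Gclm and Gstm7 were at least 2-fold lower in NCs, Gsta3 did not pass the filter and 5 were within the limit. Over all rows, 9.93% were lower and 11.1% higher. With equal totals Gclm and Gstm7 lay within the limit, and Mgst1 was higher, as were 16.8% of all rows. The direct repeat of AGGTCA with 5 bases between the copies, of the kind that RA receptors bind, stood in 3 of the 32851 promoters and in none of the 47 genes. A match says only that these letters are present, and its absence only that they are not in this window.

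The genes around these enzymes were read from 7 lists. With equal totals, 6.72% of all rows were lower and 16.8% higher. Among 14 regulators of the NRF2 pathway, 1 was higher and 1 lower (7.14% each, against 11.1% and 9.93% of all rows). Their median log2 ratio was -0.21 as deposited and 0.08 with equal totals. Bach2, a repressor at antioxidant response elements, went from 1.04 to 3.71 FPKM, and Maff, a small MAF partner protein, from 12.1 to 4.77 FPKM. Nfe2l2, which encodes NRF2 itself, was at 41.5 and 23.7 FPKM, within the limit. Of 18 other NRF2-responsive genes, 16 passed the filter. Of these, 5 were lower (31.2%, against 9.93% of all rows) and none higher (against 11.1%), with a median log2 ratio of -0.86 as deposited. With equal totals, 4 were lower and the median was -0.56. They included the carbonyl reductase Cbr3 (21.6 to 2.19 FPKM) and the epoxide hydrolase Ephx1 (15.1 to 2.00 FPKM). The exporter Abcc4 (23.4 to 5.16 FPKM) and the aldehyde dehydrogenase Aldh3a1 (1.85 to 0.269 FPKM) were also among them. Aldh3a1 was under 1 FPKM in NCs and passed the filter through its ESC value.

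Of 18 genes that supply, export or break down glutathione, 14 passed the filter. Of these, 6 were lower (42.9%, against 9.93% of all rows) and none higher (against 11.1%), with a median of -0.95 as deposited. With equal totals, 4 were lower and the median was -0.66. Cbs and Cth, the enzymes of transsulfuration that make cysteine from homocysteine, went from 15.3 to 1.86 FPKM and from 28.2 to 5.04 FPKM. Chac1, which cleaves glutathione, went from 6.60 to 1.25 FPKM, and the amino acid transporter Slc1a4 from 18.4 to 5.54 FPKM. The members that moved thus include both makers of cysteine and a breaker of glutathione. Slc7a11, the cystine transporter, was at 0.0780 and 0.0603 FPKM and did not pass the filter.

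Of 25 glutaredoxin and thioredoxin-related genes found, 1 was higher (4%, against 11.1% of all rows) and 2 were lower (8%, against 9.93%), with a median of 0.06. With equal totals, 4 were higher, 2 were lower and the median was 0.36. Msrb3, a methionine sulfoxide reductase, went from 1.09 to 5.96 FPKM, its relative Msrb2 from 5.40 to 2.20 FPKM, and the glutaredoxin Glrx from 18.5 to 6.19 FPKM. In the list for NADPH supply and related steps, 17 genes passed the filter. Of these, 3 were lower (17.6%, against 9.93% of all rows) and none higher (against 11.1%), with a median of -0.28 as deposited. With equal totals, 2 were lower and the median was 0.01. The 3 lower as deposited belong to folate metabolism: Aldh1l1 (6.25 to 1.31 FPKM), Mthfd2 (52.8 to 20.6 FPKM) and Mthfd1l (42.0 to 18.99 FPKM). Of 12 Gst-related and glutathione-using genes outside the named families, 1 was higher (8.33%, against 11.1% of all rows) and none lower (against 9.93%). The higher gene was Ptges, a prostaglandin E synthase (1.62 to 9.32 FPKM). The median of the 12 was -0.13 as deposited and 0.16 with equal totals. Of 10 genes related to selenoproteins and selenium, 1 was higher (10%, against 11.1% of all rows) and none lower (against 9.93%). The higher gene was Sepp1, the plasma selenium carrier (11.9 to 24.2 FPKM). The median of the 10 was -0.07 as deposited and 0.23 with equal totals.

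**Figure D5:**
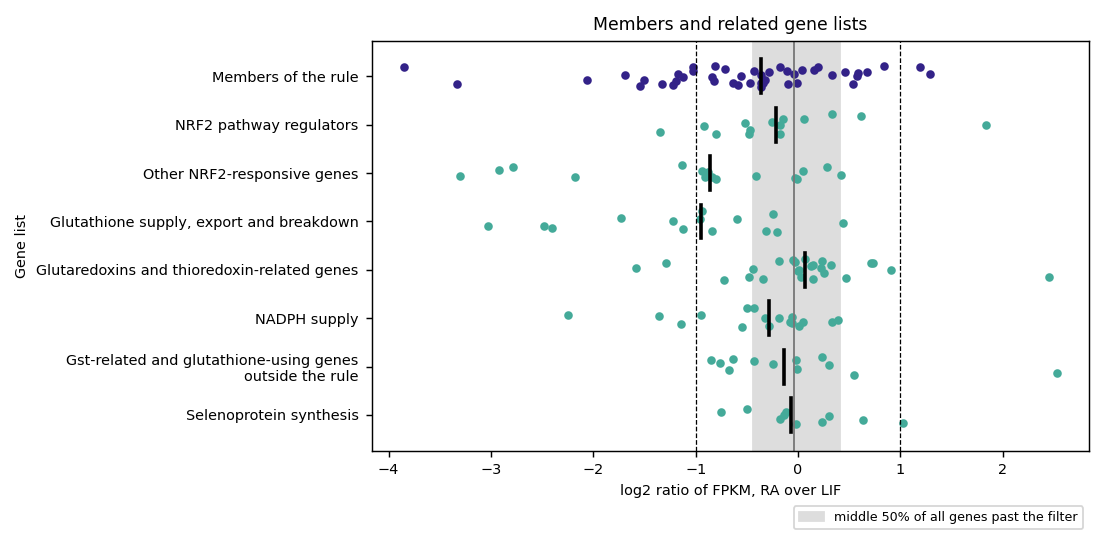
Points give the log2 ratio of the NC to the ESC FPKM of the genes past the filter in the 54-gene set and in 7 related lists, with the median of each as a black bar, spread vertically only to keep them apart. The grey band spans the middle 50% of all rows past the filter, and dashed lines mark the 2-fold limits. The medians of the NRF2-responsive list (-0.86) and the glutathione supply list (-0.95) lie below the band as deposited. With both columns at the same total every point and the band move up alike by 0.29.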

How the data were processed

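RNA of 3 ESC and 3 RA-treated samples was sequenced. Per the submitters' notes and methods, the authors used TopHat2 2.0.8, Bowtie2 2.1.0, Cufflinks 2.0.2 and Cuffdiff on mm10. The deposited FPKM values are 1 per gene and condition, and the second heading reads FPK, taken as FPKM. The Cuffdiff version, its normalization and its use of strand are not given in the sources used here. The authors' fold change, statistic, p, q and significance columns were not used. Pooling hides the spread between samples.

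The genes and lists were chosen with earlier results of these data known. Ratios had no pseudocount and needed a mean of at least 1 FPKM. The 54 genes are all named. Those past 2-fold and the 10 most abundant are described in full. Each pathway list gives at most 4 genes past 2-fold with the largest change on log2(FPKM + 1). Each marker list gives the 3 most abundant and names those not past the filter. Nfe2l2 and Slc7a11 were added after their values were seen. List sums cover genes past the filter.

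Depth per sample is unknown. From the lowest values, with 200-base fragments assumed, 3 fragments per kilobase equal 0.0413 FPKM in ESCs and 0.0428 FPKM in NCs, which covers counting only. Positions, codons and 50-base words shared between genes came from GENCODE M21 (GRCm38), and promoters from RefSeq (GRCm38.p6). Cysteine codons were placed by protein alignment (biopython 1.88). Python 3.11.15, numpy 2.4.6, pandas 2.3.3 and matplotlib 3.10.9 were used.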

Additional observations from a re-analysis of the deposited data

How the results depend on the processing

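With 1 pooled value per condition, leaving out a replicate was not run and no error or interval was set. A 2-fold difference is a limit of size and not of spread. No paired analysis was possible because the table carries no value of a numbered sample.

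At a fold limit of 1.5, 5 genes were higher (11.1%, against 19.3% of all rows) and 19 lower (42.2%, against 18.8%). At a limit of 4, 0 were higher (against 4.2% of all rows) and 3 lower (6.67%, against 3.33%). The next 2 alternatives were chosen after seeing the data. With both columns at the same total, 7 genes were lower and the median log2 ratio was -0.0736. Without the genes that share at least 10% of their 50-base words, 8 were lower. The filter of at least 1 FPKM in both conditions gave 12 lower genes (27.3%, against 7.89% of all rows). A mean of at least 0.1 FPKM gave 16 (32%, against 12%) and any value above 0 gave 17 (33.3%, against 13.2%). Pseudocounts of 0.1 and 1 gave 12 (26.7%, against 9.64% and 7.42%), and centring on all rows gave 11 (24.4%, against 9.43%). Of 180 single-gene values under pseudocounts, centring and equal totals, 169 kept their side of the limit, 11 changed it and 0 turned direction past it.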
